A study of Gallus gallus with 23 samples.

Results

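The effect of corticosterone on the chicken liver in the presence of triiodothyronine was measured by setting 5 birds given both hormones against 6 birds given triiodothyronine alone, which are 11 of the 23 arrays of the study. All birds were broiler cockerels (Ross x Cobb) that carried an osmotic minipump, implanted under the skin at 29 days of age and delivering 1.0 µl per hour, and their livers were taken after 6 days. The group called CS+T3 received corticosterone at 600 µg per kg body weight per day with triiodothyronine at 192 µg per kg per day, and the group called T3 received triiodothyronine at 192 µg per kg per day. The 6 birds of the group CS received corticosterone alone at 600 µg per kg per day and the 6 birds of the group VC received the solvent, a mixture of dimethyl sulfoxide and propylene glycol; these 12 arrays entered the fit and gave the second setting in which corticosterone was tested. The 72 birds of the experiment were housed 3 to a pen in identical rooms. Pen and room are not given for single birds, so any effect of them on the groups was not tested. All members of the comparison were taken by their labels, and all 9250 features that could be tested were used, of which 4836 are genes with a symbol and 4414 are single spots that carry none.

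Corticosterone is the main glucocorticoid of birds. It enters cells and binds the glucocorticoid receptor, which acts on genes for amino acid breakdown, glucose formation and stress responses in the liver. Triiodothyronine is the active thyroid hormone, binds nuclear thyroid hormone receptors, and in the liver is known for raising the expression of THRSP and of enzymes of fat synthesis and oxidation. The title of the study names hormonally induced lean and fat phenotypes, and the comparison of CS+T3 with T3 sets birds given corticosterone together with the thyroid hormone against birds given the thyroid hormone for the same 6 days.

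Each array was a spotted cDNA slide with 19200 spots, on which RNA of 1 bird was hybridised with a pool of liver RNA from 6 control birds. The values are taken as log2 ratios of bird over pool, so that a difference of 1 between groups is a doubling. Neither the base of the logarithm nor the numerator is stated in the sources used here. The bird as numerator is called likely because the titles set the bird against the pool, and if the pool were the numerator every direction given here would turn. In the T3 birds THRSP, the thyroid hormone-responsive Spot 14 gene, lay 0.86 (SE 0.29) above VC on this reading, a value that did not pass the test in limma (adjusted p = 0.959). The 13 tested genes of the thyroid hormone list had a median of -0.002 in T3 against VC, and the numerator was not tested. The CS+T3 and T3 arrays held 8925 to 13304 values each, and the other spots were blank. Of these arrays, 4 had values out of place: CS+T3 replicate 1 and T3 replicate 3 nearly throughout, CS+T3 replicate 2 in its last blocks and T3 replicate 1 from the middle of the slide on. Their values were moved back to their spots, which left 6511 to 10816 values on each. Dropped were values for which no place was found, values whose new spot was blank in the deposited column, and blocks in which the shift changed. The blanks of CS+T3 replicate 1 and T3 replicate 3 matched those of the unmoved arrays in place (r = 0.791 and 0.816). At the shift of the values they did not (r = 0.145 and 0.054), so blanks were left in place. After the move, T3 replicate 1 still matched the mean of the unmoved arrays with only r = 0.182, beside 0.344 to 0.590 for the other CS+T3 and T3 arrays. Its first part, left in place, gave r = 0.149. The spread of log2 ratios over spots was wider on CS+T3 replicate 2, T3 replicate 1 and T3 replicate 2 (SD 0.496 to 0.607) than on the other 8 arrays (SD 0.235 to 0.319). The called features are given with and without the moved and the wide arrays, and other genes where leaving them out moved the difference by more than 1.5 times.

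Corticosterone added to triiodothyronine raised 4 features and lowered none in limma at an adjusted p of 0.05, which is 0.0432% of the 9250 tested. At an unadjusted p of 0.05, 387 features passed (4.18%), of which 207 were higher in CS+T3 (2.24%) and 180 lower (1.95%). That share is no larger than the proportion of 0.05 that falls under this threshold where nothing differs. Genes given below as higher or lower at an unadjusted p are therefore described and not called. Counts of list members at this threshold stand beside these shares of 2.24% higher and 1.95% lower. The median difference over all features was 0.004 on the log2 scale. The 4 features were GPT2, the mitochondrial alanine aminotransferase, TM2D3, which encodes a transmembrane protein whose Drosophila counterpart takes part in Notch signalling, and a pair of spots without a gene name. Simulated data took the residual SD of each feature as independent noise, equal on all 23 arrays, with 200 of 9250 features altered at once. The test found 89% of those altered by a log2 difference of 1 (10 false calls) and 44% of those altered by 0.5 (6 false calls). The real arrays differed in spread, so these shares need not hold for them. With fewer altered features the adjusted threshold is stricter, and in the real data several genes with differences above 1 did not pass. Without the 6 arrays of the study that held a misplaced part, 0 features passed (215 at an unadjusted p of 0.05 in limma). That fit had fewer birds, and GPT2 had too few values to be tested in it. Without the 4 of them that were out of place nearly throughout, 3 passed (0.0334%). There the other arrays stood as deposited, so the misplaced parts of CS+T3 replicate 2 and T3 replicate 1 were not moved back. On the values as deposited 1 passed (0.0106%), and without the 3 arrays of wide spread 1 passed.

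GPT2 carries amino groups between alanine and glutamate, a step that links amino acid breakdown to pyruvate and glucose formation. Its log2 ratios in the CS+T3 birds were 1.71, 1.25, 0.97 and 1.29, with the spot blank in replicate 5. In the 6 T3 birds they ran from -0.68 over a median of -0.34 to -0.09. Every measured CS+T3 bird lay above the pool and every T3 bird below it, and the groups did not overlap. GPT2 rose by 1.66 (SE 0.18) on the log2 scale, or 3.16-fold, with an adjusted p of 4.95e-05 in limma (n = 4 and 6). The mean was 1.30 ± 0.31 (SD, n = 4) in CS+T3, 1.02 ± 0.35 (n = 6) in CS, 0.20 ± 0.30 (n = 6) in VC and -0.36 ± 0.21 (n = 6) in T3. In this order the neighbours CS+T3 and CS differed by 0.28 (SE 0.18), which did not pass (limma, adjusted p = 0.375), nor did T3 against VC at -0.56 (SE 0.16, adjusted p = 0.959). Corticosterone without the thyroid hormone had raised GPT2 by 0.82 (SE 0.16, adjusted p = 0.00511). The rise in the presence of triiodothyronine was larger by 0.84 (SE 0.24), a difference between the settings that did not pass (adjusted p = 0.252). The fit of every spot on its own has spots as features and is not counted among the alternatives of this or any other gene. GPT2 passed in 22 of the 23 counted alternatives in which it could be tested. The exception was the table as deposited, where it stood at 1.03 (limma, adjusted p = 0.999). Without the 6 misplaced arrays it had too few values to be tested.

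TM2D3 stood at 1.91, 1.23, 1.55, 1.32 and 0.89 in the CS+T3 birds. The T3 birds ranged from 0.00 over a median of 0.25 to 0.47, so the lowest CS+T3 bird lay above the highest T3 bird. TM2D3 rose by 1.15 (SE 0.19) on the log2 scale, or 2.22-fold (limma, adjusted p = 0.00696, n = 5 and 6). The mean of the CS birds, 0.32 ± 0.31 (SD, n = 6), was close to that of the T3 birds, 0.23 ± 0.21 (n = 6), and that of the VC birds was -0.03 ± 0.40 (n = 6). Single CS birds ran from 0.01 to 0.85, the highest of them just under the lowest CS+T3 bird. The CS+T3 birds were also above CS, by 1.06 (SE 0.19, adjusted p = 0.00502), and above VC, by 1.41 (SE 0.19, adjusted p = 0.0012). Corticosterone alone against VC gave 0.35 (SE 0.18, adjusted p = 0.282), and the difference between the settings was 0.80 (SE 0.26, adjusted p = 0.324), so neither passed. Of the 2 spots of TM2D3 only 1 could be tested by itself, and GPT2 has 1 spot. The call of TM2D3 was less firm than that of GPT2. It was lost in 6 of 24 alternatives, among them the fits without the 3 wide arrays, at 1.11 (limma, adjusted p = 0.149), and without the 6 misplaced arrays, at 1.05 (adjusted p = 0.449). It was also lost, at 0.71, without the 4 arrays out of place nearly throughout. In that fit the misplaced parts of CS+T3 replicate 2 and T3 replicate 1 stood as deposited. On the moved values TM2D3 kept its call without CS+T3 replicate 1, at 1.02 (adjusted p = 0.0447), and without T3 replicate 3, at 1.19 (adjusted p = 0.0127).

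The spots without a gene name both lay in block 19, row 14 of the array, in columns 1 and 13. The spot in column 1 read 0.96, 0.93, 1.29, 1.30 and 0.27 in the CS+T3 birds and -1.55 to -0.34 in 5 T3 birds, with a median of -0.79. It rose by 1.82 (SE 0.26), or 3.54-fold (limma, adjusted p = 0.00275, n = 5 and 5). The spot in column 13 read 0.23, 0.37, 0.75, 1.35 and 0.00 in CS+T3 and -2.07 to -0.48 in 5 T3 birds, with a median of -1.34. It rose by 1.95 (SE 0.29), or 3.86-fold (limma, adjusted p = 0.00275, n = 5 and 5). For both spots the groups did not overlap, and CS+T3 replicate 5 was the lowest of its group. The other 15 tested spots of that row had a median difference of 0.045, with a range of -1.23 to 0.62, so the row as a whole lay near 0. The spot in column 1 rose under corticosterone alone too, by 1.13 (SE 0.25, limma, adjusted p = 0.0119), whereas the spot in column 13 stood at 0.33 there (SE 0.27, adjusted p = 0.532). Neither kept its call without the 3 wide arrays, at 1.78 (adjusted p = 0.0543) and 1.79 (adjusted p = 0.110), or without the 6 misplaced arrays, at 1.96 and 1.94 (adjusted p = 0.124 for each). On the deposited order the spot in column 1 lost its call too, at 1.45 (adjusted p = 0.487), and in a fit of the CS+T3 and T3 arrays alone the spot in column 13 did (adjusted p = 0.0799).

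**Figure D1:**
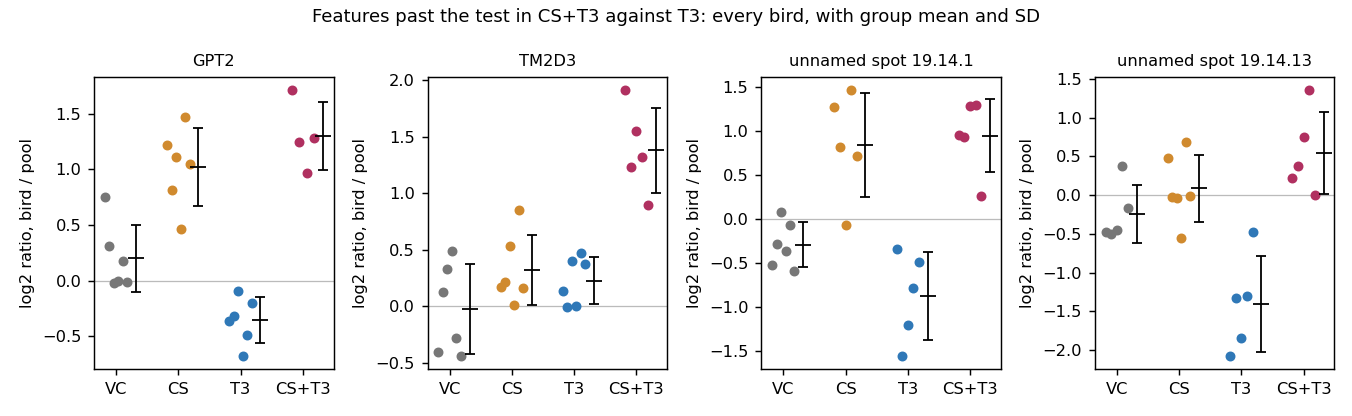
Log2 ratio of bird over pool for GPT2, TM2D3 and the 2 unnamed spots (named by block, row and column) in each bird of the groups VC, CS, T3 and CS+T3. Each dot is 1 bird, and the black mark with its bar is the group mean with its SD. In all 4 panels the lowest CS+T3 bird lies above the highest T3 bird. For TM2D3 the CS birds run from 0.01 to 0.85, and the highest of them lies above every VC and T3 bird.

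The genes with the next smallest p among those with values in at least 4 CS+T3 and 5 T3 birds did not pass the test. SUGCT, which transfers coenzyme A to glutarate in lysine and tryptophan breakdown, read 0.92, 0.98, 0.71 and -0.10 in CS+T3 replicates 2 to 5, and -0.79 to -0.21 in 5 T3 birds with a median of -0.56. The difference was 1.13 (SE 0.21, limma, adjusted p = 0.0596), and replicate 5 stood apart from the other 3 CS+T3 birds while still above the T3 birds. SUGCT passed in 2 of 24 alternatives: without CS+T3 replicate 5, at 1.38 (limma, adjusted p = 0.0019), and without T3 replicate 6, at 1.21 (adjusted p = 0.0442). INTS6, part of the Integrator complex that processes small nuclear RNAs and ends transcription early, read 1.25, 0.91, 1.10, 0.55 and 0.74 in CS+T3 and -0.12 to 0.37 in 5 T3 birds, median 0.19. Its difference was 0.73 (SE 0.14, adjusted p = 0.0596). INTS6 passed in 3 of 24 alternatives: after scale normalization, with array weights and without CS+T3 replicate 4 (adjusted p = 0.0283 to 0.0384). ACSM5, a mitochondrial enzyme that activates medium-chain fatty acids, read 1.06, 0.40, 1.09, 0.92 and 0.75 against -0.09 to 0.13 in T3, median 0.02, a difference of 0.83 (SE 0.18, adjusted p = 0.140). ACSM5 passed in 2 of 24 alternatives: with array weights (adjusted p = 0.0286) and in a fit of the CS+T3 and T3 arrays alone (adjusted p = 0.0357). Without the 6 misplaced arrays SUGCT, INTS6 and ACSM5 stood at 1.09, 0.61 and 0.93 (adjusted p = 0.508, 0.980 and 0.742). The groups did not overlap for any of these 3 genes. Over all features, 0.897% had CS+T3 birds all above the T3 birds and 0.508% all below.

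FKBP5 and TAT are textbook targets of the glucocorticoid receptor. FKBP5, a chaperone that lowers the receptor's affinity for its ligand, read 0.42, -0.07, 0.55, 0.40 and -0.04 in CS+T3 and -0.42 over -0.28 to 0.04 in T3. Replicates 2 and 5 lay among the T3 birds, and the difference was 0.48 (SE 0.12, limma, adjusted p = 0.287). It was 0.46 without the 6 misplaced arrays. Without the 4 arrays out of place nearly throughout it was 0.27, with CS+T3 replicate 2 and T3 replicate 1 as deposited. TAT, the aminotransferase that starts tyrosine breakdown, read 0.54, 0.71, 0.55, 0.76 and 0.40 in CS+T3 and -0.57 over 0.06 to 0.37 in T3. Its groups did not overlap, and the difference was 0.62 (SE 0.15, adjusted p = 0.287). Under corticosterone alone TAT lay below VC, by -0.37 (SE 0.14, adjusted p = 0.156), and the difference between the settings, 0.99 (SE 0.21), came close to the threshold without passing it (adjusted p = 0.0618). TAT was higher in CS+T3 than in CS by 0.85 (SE 0.15, adjusted p = 0.00522). CEBPB, a transcription factor of the liver's stress and acute-phase response, stood at 0.36 (SE 0.18, adjusted p = 0.998), with its tested spots between -0.03 and 0.62. Of the 13 tested members of the glucocorticoid response list 0 passed in limma. At an unadjusted p of 0.05, 2 were higher and 0 lower, beside 2.24% of all features higher and 1.95% lower. The list's median was -0.016 beside 0.004 over all features. FKBP5, TAT and CEBPB lay on its higher side. In the whole list 6 members had a positive difference and 7 a negative one, down to -0.29.

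No gene passed in the lower direction. ALDH18A1, which makes the precursor of proline and ornithine from glutamate, came nearest. It read -0.43, -0.10, -0.45, -0.42 and -0.17 in CS+T3 and 0.04 over 0.16 to 0.82 in T3, so every CS+T3 bird lay below the pool and every T3 bird above it. The difference was -0.58 (SE 0.13, limma, adjusted p = 0.140). ASNS, asparagine synthetase, read -0.65, -0.89, -0.29, -0.58 and -0.42 against -0.39 over -0.09 to 0.06, overlapping in 1 bird of each group. It differed by -0.45 (SE 0.11, adjusted p = 0.287), and by -0.29 without the 6 misplaced arrays. Both genes had fallen under corticosterone alone by similar sizes, -0.57 (SE 0.13, adjusted p = 0.0124) for ALDH18A1 and -0.44 (SE 0.11, adjusted p = 0.0169) for ASNS. The differences between the settings were -0.01 (SE 0.18) and -0.01 (SE 0.15).

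TTR, the plasma carrier of thyroid hormone and retinol-binding protein, read -0.45, -1.50, -1.15, -0.55 and -0.38 in CS+T3 and -0.43 over 0.27 to 0.70 in T3. Replicates 2 and 3 were the lowest, and the least lowered bird lay within the T3 range. The difference was -1.03 (SE 0.25, limma, adjusted p = 0.287), with its 3 spots between -1.72 and -0.57. C4A, complement component 4, read -0.92, -0.69, -1.48, -0.54 and -0.68 against -0.17 over 0.00 to 1.11 in T3, with no overlap, and differed by -1.03 (SE 0.26, adjusted p = 0.343). C9ORF58 was lower by -0.37 (SE 0.10, adjusted p = 0.343), with CS+T3 birds at -0.28 to 0.07 and T3 birds at 0.08 to 0.39. ASNS and C4A passed after quantile normalization of the arrays (adjusted p = 0.0313 and 0.0418), for each the 1 of 24 alternatives in which it passed.

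**Figure D2:**
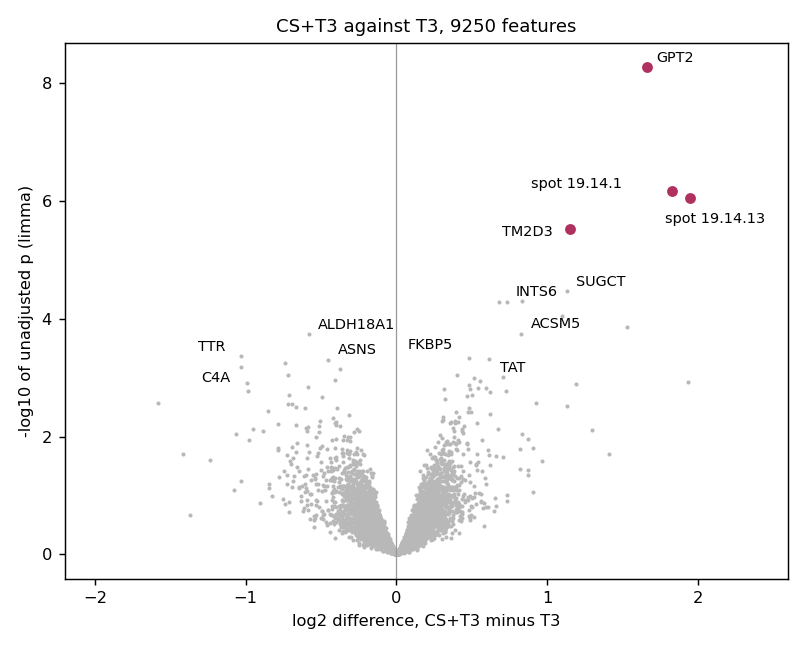
Log2 difference between CS+T3 and T3 (horizontal axis) against the negative log10 of the unadjusted p from limma (vertical axis) for 9250 features. Large dots are the 4 features with an adjusted p under 0.05, all to the right, and the named grey dots are the genes with the next smallest p that the text describes, which did not pass.

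Among genes of amino acid breakdown and nitrogen disposal, 39 were tested and GPT2 was the 1 that passed. At an unadjusted p of 0.05, 6 were higher and 2 lower in CS+T3, beside 2.24% and 1.95% of all features. The median was 0.034. SHMT1, which moves a one-carbon unit from serine to folate, read 0.17 to 0.53 in CS+T3 and -0.53 to 0.19 in T3, a difference of 0.47 (SE 0.18, limma, adjusted p = 0.998). PSAT1, an aminotransferase of serine synthesis, differed by 0.40 (SE 0.16, adjusted p = 0.998). Every tested member other than GPT2 lay between -0.73 and 0.62.

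No lipid gene passed the test. Of 21 tested genes of fatty acid and triglyceride synthesis 0 passed in limma, 2 were higher and 0 lower at an unadjusted p of 0.05, and the median was -0.037. GPAM, which attaches the first fatty acid to glycerol phosphate, read 0.39, 1.69, 0.14, 0.76 and 0.23 in CS+T3 against -0.38 to 0.32 in 5 T3 birds, a difference of 0.66 (SE 0.27, limma, adjusted p = 0.998) in which replicate 2 was far above the rest. Without the 3 wide arrays, of which that bird is 1, it was 0.38. ACLY, the ATP citrate lyase that supplies acetyl-CoA for fat synthesis, differed by 0.35 (SE 0.15, adjusted p = 0.998), and by 0.16 without the wide arrays. THRSP read 0.93, 1.88, 1.30, 1.78 and 1.16 in CS+T3 and -0.28 over 1.05 to 1.42 in T3. Its difference was 0.59 (SE 0.30, adjusted p = 0.998), and its 2 spots disagreed in size, at 0.25 and 1.10. ACSS2, the cytosolic acetyl-CoA synthetase, differed by -0.33 (SE 0.17, adjusted p = 0.998), a value to which T3 replicate 1 contributed a lone high bird at 1.19. Its spots, tested singly, lay at -0.32 and -0.13. Without the wide arrays the difference was -0.12, and without the 6 misplaced arrays it was -0.03.

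Of 13 tested lipid droplet and lipoprotein genes 0 passed in limma. At an unadjusted p of 0.05, 1 was higher and 2 lower. APOA1, the main protein of high-density lipoprotein, differed by 0.48 (SE 0.18, limma, adjusted p = 0.998), APOB, the structural protein of very-low-density lipoprotein, by -0.43 (SE 0.19, adjusted p = 0.998) and CD36, a fatty acid transporter, by -0.29 (SE 0.13, adjusted p = 0.998). For APOB, corticosterone alone had given a fall of -0.92 (SE 0.18, adjusted p = 0.00387). Of 20 tested genes of fatty acid oxidation and ketone bodies 0 passed and EHHADH, a peroxisomal enzyme of beta-oxidation, was the 1 lower at an unadjusted p of 0.05. EHHADH read -0.09, -0.06, 0.17, 0.15 and 0.44 in CS+T3 and -0.10 over 1.05 to 1.53 in T3, where 4 birds stood near 1 or above and 2 stood near the CS+T3 birds. The difference was -0.71 (SE 0.20, adjusted p = 0.466), and its tested spots lay at -0.77 and -0.01. Of the 4 high T3 birds, 3 are moved or wide arrays, and the difference was -0.33 without the 6 misplaced arrays and -0.43 without the 3 wide ones. Without T3 replicate 5, a bird near the CS+T3 birds, EHHADH passed at -0.90 (adjusted p = 0.0455), the 1 of 24 alternatives in which it did. In 13 genes of cholesterol synthesis 0 passed and ACAT2, which joins acetyl-CoA units, stood at 0.45 (SE 0.15, adjusted p = 0.801), with its tested spots at 0.23 and 0.84. Of 5 genes of bile acid synthesis 0 passed, and CYP27A1, a sterol hydroxylase, stood at -0.26 (SE 0.12, adjusted p = 0.998), with its 3 spots between -0.45 and 0.20.

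**Figure D3:**
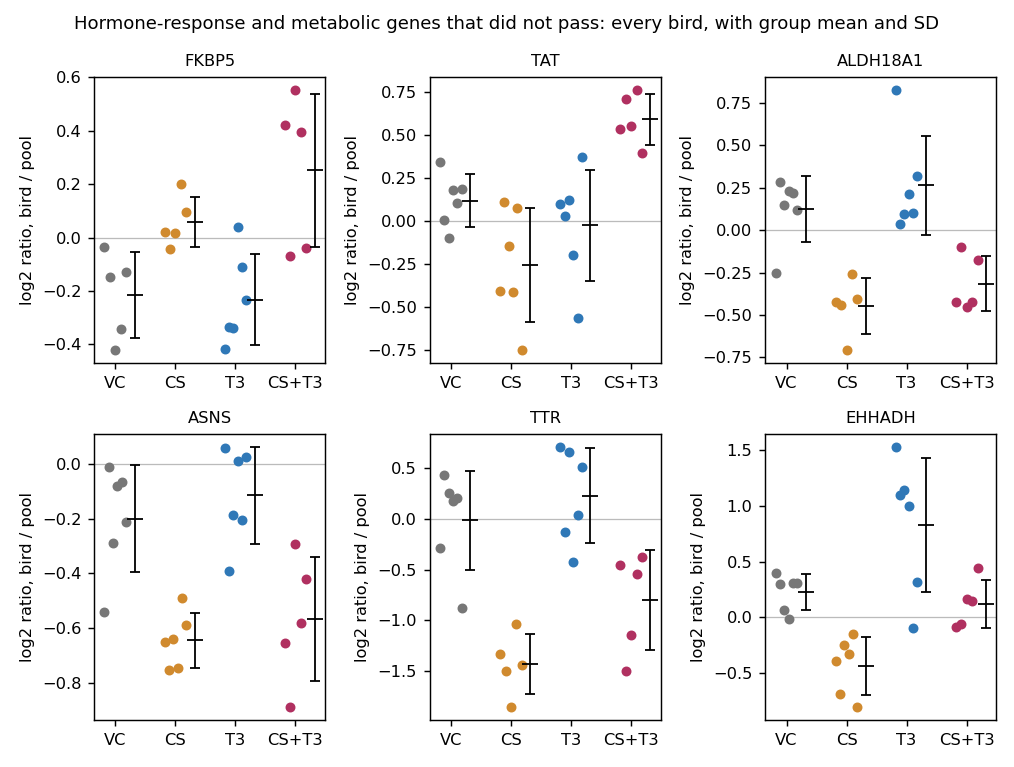
Log2 ratio of bird over pool in each bird of the groups VC, CS, T3 and CS+T3 for FKBP5, TAT, ALDH18A1, ASNS, TTR and EHHADH, none of which passed in CS+T3 against T3. Dots are birds, and the black mark with its bar is the group mean with its SD. CS+T3 and T3 birds do not overlap for TAT and ALDH18A1 and overlap for the other 4 genes.

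Carbohydrate genes likewise gave no calls. Of 13 glycolytic genes 0 passed in limma, and LDHB, a lactate dehydrogenase subunit, was the 1 lower at an unadjusted p of 0.05, at -0.66 (SE 0.24, limma, adjusted p = 0.998). Its T3 birds spread from -0.59 to 1.38, against -0.59 to 0.00 in CS+T3, and without the 3 wide arrays the difference was -0.32. GAPDH, a glycolytic enzyme, stood at -0.42 (SE 0.23, adjusted p = 0.998) with 11 tested spots between -0.81 and 0.28. It stood at -0.36 without the 6 misplaced arrays. Without the 4 arrays out of place nearly throughout it stood at -0.28, with CS+T3 replicate 2 and T3 replicate 1 as deposited. Of 13 genes of gluconeogenesis and glycogen 0 passed, and 10 had a negative difference, beside 4529 of all 9250 features. UGP2, which makes UDP-glucose for glycogen, stood at -0.31 (SE 0.11, limma, adjusted p = 0.943), or -0.16 without the 6 misplaced arrays. Of 12 genes of the tricarboxylic acid cycle 0 passed, and none had an unadjusted p under 0.05.

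Genes of oxidative phosphorylation leaned upward without a call. Of 34 tested subunits 0 passed in limma, and 24 had a positive difference, beside 51% of all features. At an unadjusted p of 0.05, 6 were higher and 0 lower, beside 2.24% and 1.95% of all features. The median was 0.057 beside 0.004 over all features, so the lean was small. UQCRQ, a subunit of complex III, read 0.21, 0.25, 0.63 and 0.48 in CS+T3 replicates 2 to 5 and -0.35 to 0.33 in 5 T3 birds, a difference of 0.48 (SE 0.15, limma, adjusted p = 0.652). The complex I subunits NDUFB6, NDUFC2 and NDUFS1 stood at 0.31 (SE 0.10, adjusted p = 0.778), 0.31 (SE 0.12, adjusted p = 0.998) and 0.35 (SE 0.14, adjusted p = 0.998). Tested singly, the 2 spots of NDUFS1 stood at 0.19 and 0.25, both below its averaged value. Without the 3 wide arrays UQCRQ stood at 0.76 and NDUFS1 at 0.16. NDUFC2 stood at 0.26 without the 6 misplaced arrays. Without the 4 arrays out of place nearly throughout it stood at 0.18, with CS+T3 replicate 2 and T3 replicate 1 as deposited. The mean over the list in each bird ran from 0.135 to 0.253 in CS+T3 and from 0.00 to 0.153 in T3, so that the groups overlapped. Here and below, such a mean covers the members with a value in that bird, so the genes behind it differ between birds.

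Plasma and acute-phase protein genes are made in the liver for export to the blood, and their differences were compared between the settings. With triiodothyronine present, 0 of 37 tested genes passed in limma. At an unadjusted p of 0.05, 1 was higher and 3 lower. A negative difference was found in 28 of 37, beside 4529 of all 9250 features, and the median was -0.140. Without triiodothyronine, corticosterone lowered 21 of the same 37 genes and raised 1, with a median of -0.812, in a comparison where 4.08% of features passed, 3.09% lower and 0.984% higher. That list was drawn up with its fall under corticosterone alone already known, so its direction there is no independent evidence. The mean over the list in each bird ran from -0.516 over a median of -0.192 to -0.052 in CS+T3 and from -0.416 over 0.006 to 0.255 in T3, and these overlapped. In the CS birds it ran from -1.04 over -0.720 to -0.423, and in the VC birds from -0.080 over 0.017 to 0.074, which did not overlap. In bulk liver RNA, fewer cells of a type and less RNA per cell cannot be told apart.

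FGG, the fibrinogen gamma chain, was the 1 plasma gene higher at an unadjusted p of 0.05. It read 0.65, 0.92, 0.89 and -0.09 in CS+T3 replicates 2 to 5 and -0.26 to 0.12 in 5 T3 birds, median 0.02, with replicate 5 alone inside the T3 range. The difference was 0.62 (SE 0.17, limma, adjusted p = 0.444). FGG passed in 1 of 24 alternatives, without CS+T3 replicate 5, at 0.85 (adjusted p = 0.0139). C8A, a chain of complement component 8, was lower by -0.69 (SE 0.20, adjusted p = 0.563) after a fall of -1.14 (SE 0.20, adjusted p = 0.00217) under corticosterone alone. ORM1, the acute-phase protein orosomucoid, was lower by -1.23 (SE 0.51, adjusted p = 0.998) after a fall of -2.19 (SE 0.49, adjusted p = 0.0124) under corticosterone alone, and its T3 birds spread from -1.23 to 1.44. Without the 3 wide arrays its difference was -0.75.

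The difference between the settings was tested as the corticosterone difference with triiodothyronine minus that without it. In limma, 8 features passed, 0.0865% of those tested, and all 8 had a positive value. The 2 named genes among them, A2M and F2, belong to the plasma list. A2M, the protease inhibitor alpha-2-macroglobulin, read 0.02, -0.15, 0.05, -0.08 and 0.30 in CS+T3 and -0.19 over 0.12 to 0.42 in T3, so every CS+T3 bird lay inside the T3 range. Its difference was -0.10 (SE 0.13) with triiodothyronine and -1.06 (SE 0.13) without it, and the difference between them was 0.96 (SE 0.18, limma, adjusted p = 0.0492). F2, prothrombin, read -0.09, -0.42, -0.64, -0.23 and -0.30 in CS+T3 and -0.59 over -0.42 to -0.02 in 5 T3 birds. Its difference was -0.03 (SE 0.15) with triiodothyronine and -1.05 (SE 0.13) without it, and the difference between them was 1.02 (SE 0.20, adjusted p = 0.0492). Over the 37 plasma genes the difference between the settings had a median of 0.459, beside -0.026 over all features, and was positive in 33, beside 46.1% of all features. At an unadjusted p of 0.05 it was positive in 16 and negative in 1, beside 9.79% of all features past that threshold and 5.58% past it with a positive value. The list was known to fall in CS against VC, and that difference enters here with a minus sign, so positive values follow in part from the choice of genes and are no evidence of their own. The 8 calls lie just under the threshold and 0 passed under 23 of 36 alternatives, the replicate block and the fit without the 6 misplaced arrays among them.

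**Figure D4:**
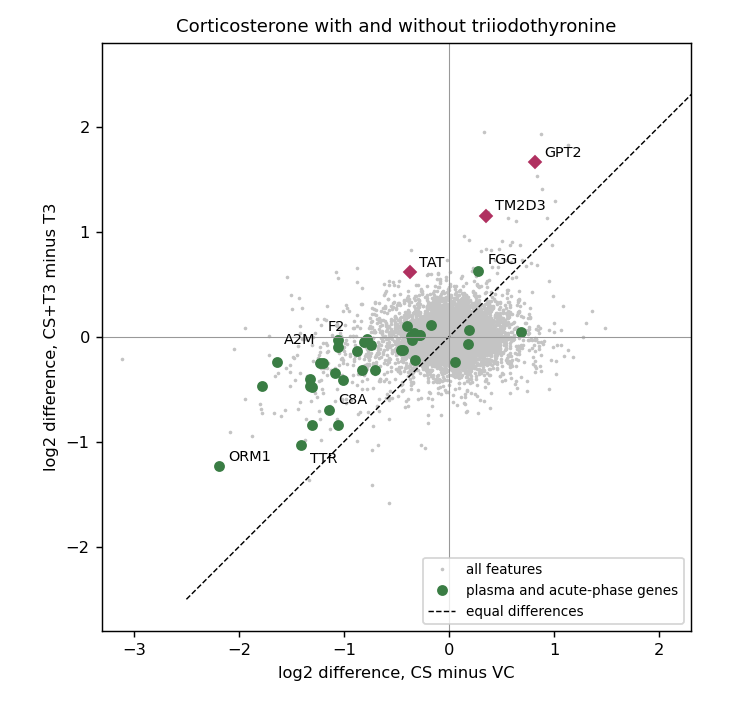
Log2 difference of corticosterone without triiodothyronine (CS minus VC, horizontal axis) against that with triiodothyronine (CS+T3 minus T3, vertical axis) for 9250 features in grey, with the 37 plasma and acute-phase genes in green and GPT2, TM2D3 and TAT as diamonds. The dashed line marks equal differences. Most green points lie left of 0 and above the dashed line, with A2M and F2 near -1 on the horizontal axis and near 0 on the vertical axis.

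CS+T3 against T3 and CS against VC share no array. Over all 9250 features their differences had the same sign in 52% and correlated with r = 0.208, across genes that are not independent replicates. Of the 377 features past the test in CS against VC, 254 (67.4%) had the same sign in CS+T3 against T3, and the median size was 0.154 there beside 0.777 in CS against VC. The 286 features that fell in CS had a median of -0.146 in CS+T3 against T3, and 210 of them were negative. The 91 that rose in CS had a median of -0.011, and 44 of them were positive. These features were chosen for their size in CS against VC, so a smaller size elsewhere is partly given by that choice. GPT2 and the unnamed spot in column 1 were the 2 features past the test in both comparisons.

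**Figure D5:**
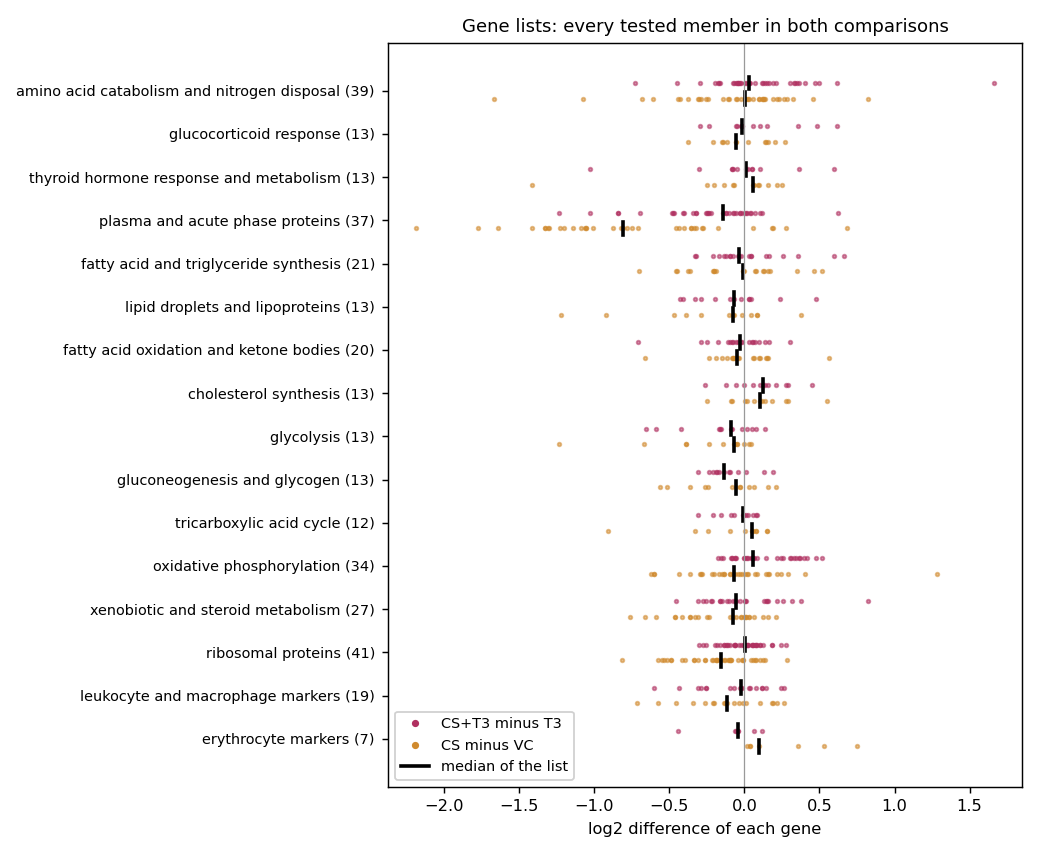
Log2 difference of every tested member of 16 gene lists in CS+T3 minus T3 and in CS minus VC, with the number of tested members after each list name. Dots are genes, and the black bar is the median of the list. The medians of the plasma and acute-phase list lie at -0.140 and -0.812, while the medians of the other lists in CS+T3 minus T3 lie between -0.135 and 0.123.

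In the remaining lists 0 members passed in limma. Xenobiotic and steroid metabolism had 27 tested genes, 3 higher and 4 lower at an unadjusted p of 0.05. CYP3A5, a drug- and steroid-oxidising cytochrome, stood at 0.37 (SE 0.13, limma, adjusted p = 0.816), ADH1C, an alcohol dehydrogenase, at 0.82 (SE 0.32, adjusted p = 0.998) and MGST1, a microsomal glutathione transferase, at -0.46 (SE 0.17, adjusted p = 0.998). The 8 tested genes of the growth hormone and insulin-like growth factor axis included CISH, an inhibitor of cytokine and growth hormone signalling, at 0.25 (SE 0.10, adjusted p = 0.998). Of 41 ribosomal protein genes, RPS23 was the 1 higher at an unadjusted p of 0.05, at 0.28 (SE 0.12, adjusted p = 0.998), and of 28 proteasome genes PSMD11 was the 1, at 0.27 (SE 0.10, adjusted p = 0.990). Without the 6 misplaced arrays CYP3A5 stood at 0.21, RPS23 at 0.13 and PSMD11 at 0.11. In 16 cell cycle genes it was MCM4, a subunit of the helicase that opens DNA for replication. The list's median was 0.05, and 5 members had a negative difference, down to -0.32. Other subunits of that helicase were among these 5. MCM4 read 0.68, 0.69, 1.14 and 0.01 in CS+T3 replicates 2 to 5 and -1.53 to -0.55 in 4 T3 birds, a difference of 1.53 (SE 0.32, adjusted p = 0.126) without overlap. With 4 T3 values it fell short of the minimum set for naming above, although its p was smaller than that of ACSM5.

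Markers of other cells that a liver sample can hold gave no call. Of 19 leukocyte and macrophage genes 0 passed in limma, 0 were higher and 2 lower at an unadjusted p of 0.05, and the mean over the list ran from -0.109 to 0.043 in CS+T3 and from -0.033 to 0.208 in T3. CD74, the invariant chain of antigen presentation, stood at -0.60 (SE 0.18, limma, adjusted p = 0.601), with spots between -1.25 and -0.06, and CYBB, the oxidase of phagocytes, at -0.29 (SE 0.12, adjusted p = 0.998). Without the 6 misplaced arrays these stood at -0.32 and -0.14. Of 7 erythrocyte genes 0 passed, and the list mean ran from -0.090 to 0.401 in CS+T3 and from -0.110 to 0.348 in T3. Of 18 stellate cell and matrix genes, 11 endothelial genes, 5 bile duct genes and 9 genes of pancreas, muscle and fat 0 passed, with medians of -0.019, -0.007, -0.144 and 0.026. Of 12 hepatocyte genes 0 passed, 2 were higher and 2 lower at an unadjusted p of 0.05, and the median was -0.045. In CS against VC their median was -0.574, with 4 of 12 fallen, beside 3.09% of all features. The difference between the settings had a median of 0.378 and was positive in 10, beside 46.1% of all features. The plasma list holds 7 of these 12 genes, and the difference of CS from VC enters with a minus sign. These values are thus no evidence apart from that list. A 2-colour ratio to a liver pool cannot show whether these markers were present or absent, so the tissue itself was not tested here.

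Among features with an unadjusted p under 0.05 in limma, CS+T3 replicate 5 was often the bird of its group nearest the T3 birds. Of the 145 features that were higher at an unadjusted p of 0.05 and measured in all 5 birds, it was the lowest bird in 49 (33.8%), beside 13.2% of all 5802 features measured in all 5. Of the 133 such features that were lower, it was the highest bird in 53 (39.8%), beside 16.2%. Left out of the fit, replicate 5 raised the number of features past the test from 4 to 8, and the cause was not tested. The features counted here were chosen with the values of replicate 5 in the fit, and features of the same arrays are not independent. No conclusion on the response of this bird is drawn from these shares.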

How the data were processed

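RNA was measured in 23 chicken livers, 1 array per bird. The deposited table, the authors' processed values of the arrays, holds 1 log2 ratio per spot and array; its log base and normalization are not given in the sources used here, and array medians lay between -0.054 and -0.011 in CS+T3 and T3. No depth exists for arrays, so their number limits the precision. Spots were named by the platform annotation (10601 with 1 symbol, 8599 without), and spots of a gene were averaged. The order of values on 6 of 23 arrays was out of step with the rest, and a search over lags of up to 40 spots moved them back. A move required at least 1000 spots at a lag with r of at least 0.25. On VC replicate 1, 486 spots in blocks 47 to 48 gave r = 0.202 at a lag of 40 and -0.251 in place. They fell short of these limits and were used in place. On simulated shifts of the 17 arrays not moved, VC replicate 1 among them, the search placed a median of 99.7% and 99.1% of spots rightly (lowest 85.5%). Those shifts all began past block 1, whereas CS+T3 replicate 1 and T3 replicate 3 shifted within it. T3 replicate 1 also matched the rest less well, so the shares need not hold for such arrays. No pair of arrays correlated below -0.139.

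The 4 group means were estimated over all 23 arrays by lmFit and eBayes of limma (version 3.58.1, R version 4.3.3) for features with at least 3 values in every group, and Benjamini-Hochberg adjusted p-values under 0.05 over all 9250 features counted as past the test. Each bird was its own sample. Named are genes past the test, the 5 with the smallest p each way where fewer than 5 passed (with at least 4 CS+T3 and 5 T3 values, all CS+T3 birds on one side of the T3 mean), and in each list up to 4 members with the smallest p, of which 46 genes are printed. The comparison, the 27 gene lists and the printed genes were chosen with earlier results of these data known. Alternatives were the deposited order, leaving out misplaced or single arrays, centring, scale and quantile normalization, array weights, other minimum numbers of values, spots singly or by their median, the replicate number as a block, and a fit of the CS+T3 and T3 arrays alone. With the 4 arrays out of place nearly throughout left out, the other arrays stood as deposited, and CS+T3 replicate 2 and T3 replicate 1 kept their misplaced parts. The fit without the 3 wide arrays was added after seeing the data. Counts of alternatives for single genes leave out the fit of spots singly. No sequences are shown, since none were used here.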

Additional observations from a re-analysis of the deposited data

Results flagged for a closer look

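Birds that stood apart from the rest of their group, by Dixon's test on single genes, were found in 8 of 96 groups of values, where chance gives about 1 in 20. T3 replicate 1, an array of wide spread with a moved part, was the high bird for ALDH18A1 (0.82), C4A (1.11) and ACSS2 (1.19), and T3 replicate 2, also wide, for MGST1 (0.73). In CS+T3 the bird apart was replicate 2 for CYP27A1 (0.41), replicate 4 for GAPDH (0.29), replicate 1 for NDUFB6 (0.52) and replicate 5 for CISH (-0.10). The corticosterone difference itself differed between the presence and absence of triiodothyronine in limma for A2M, by 0.96 (adjusted p = 0.0492), and F2, by 1.02 (adjusted p = 0.0492).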

How the results depend on the processing

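The count of features past the test in CS+T3 against T3, 4 in the fit reported, was 0 without the 6 arrays with a misplaced part (215 at an unadjusted p of 0.05 in limma), 1 on the deposited order, 1 without the 3 wide arrays, 7 with array weights and 7 with every spot on its own, and it ran from 4 to 8 when single arrays were left out, highest without CS+T3 replicate 5 (8) and T3 replicate 6 (7). The count of named genes, 2 in the fit reported, was 0 on the deposited order and 0 without the 6 arrays, 1 without the 4 arrays out of place nearly throughout, 1 with the replicate number as a block, 1 without the 3 wide arrays, 4 with array weights and 5 with every spot on its own, and it ran from 2 to 5 when single arrays were left out. After quantile normalization 5 features passed, 3 higher and 2 lower, against 4 higher and 0 lower. The number of features whose corticosterone difference depended on triiodothyronine, 8 in the fit reported, was 0 in 23 of 36 alternatives: 0 on the deposited order, without the 4 or the 6 misplaced arrays, with at least 2 values per group, with every spot on its own, with the replicate number as a block, and without the 3 wide arrays. It was 2 after quantile normalization, 13 after setting array medians to 0, 13 after scale normalization and 37 with array weights, and it ran from 0 to 36 when single arrays were left out, 0 for 16 of the 23 arrays and 36 without CS replicate 5. In all these alternatives the cause was not tested.

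Replicate numbers were not taken to pair the birds: same-numbered CS+T3 and T3 birds deviated together with r of -0.07 to 0.324 (median 0.102, above 0.1 in 3 of 5 pairs), and differently numbered ones with r of -0.295 to 0.289 (median 0.007). With the number as a block, 3 features passed in place of 4, TM2D3 being lost (adjusted p = 0.0607). The differences of A2M and F2 in CS+T3 against T3, near 0, changed sign: A2M to 0.0096 and 0.0429 without the 4 and the 6 misplaced arrays, and F2 between -0.0999 and 0.0458 when single arrays were left out. The number of arrays limits what could be called.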
